A study of Mus musculus with 6 samples.

Results

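The genes described here are the integrins, cadherins, syndecans, glypicans, connexins and adhesive or elastic matrix proteins measured in 2T3 cells, which are mouse pre-osteoblasts kept as a line. They were taken by symbol, as genes starting with Itga, Itgb, Cdh, Sdc, Gpc, Lama, Lamb, Lamc, Nid, Fbln, Fbn, Gja or Gjb, together with a short list that includes Vtn, Ilk, Cav1, Ncam1, Vcam1, Eln and Hspg2. Where a symbol had several probes the brightest on average stood for it. The rule gave 80 of the 8841 symbols that had a probe, and 81 of 10500 probes. The prefixes also took in 8 genes whose symbols start alike but are not named as members of these families. They include the binding proteins Sdcbp and Itgb1bp1 and the related genes Itgb2l, Cdhr4 and Cdhr5. These 8 are counted among the 80 members but described apart from the families. Fn1, Ptk2, Cd44, Icam1, Fbn1 and Sdc3 were not analysed here, because no probe carried their symbol alone.

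Expression was measured on 3 arrays of cells under simulated microgravity and 3 arrays of static cells. Cells of both groups grew in OptiCells, closed culture cassettes, and the microgravity group was turned on a Random Positioning Machine, which keeps changing a culture's direction to gravity. All samples came from 1 cell line, the labels name no separate cultures or days, and no exposure time was given in the sources used here. Values are intensities divided by the median of their array, so 1 stands for the median probe, and the brightness of a probe also depends on its sequence, so levels are set against each other only within a probe.

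Cells attach to matrix and to each other through these proteins. Integrins are pairs of an alpha and a beta chain that bind matrix proteins such as fibronectin, vitronectin and laminin outside the cell and connect to actin inside it. Syndecans and glypicans carry heparan sulfate chains and help integrins and growth factors bind, cadherins join neighbouring cells, and connexins form the channels of gap junctions, which are abundant in osteoblasts. Laminins, nidogens and perlecan build basement membranes, and fibulins, fibrillins and elastin build elastic fibres.

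The 2 arrays numbered 2 stood apart from the other 4. The fit used a floor of 0.1 of the array median, and microgravity 2 had 6.34% of its probes at that floor and static 2 had 9.05%. The other arrays had 17.0% to 19.7%. Among the members, 7.5% were at the floor on microgravity 2 and 22.5% on static 2, against 25% to 28.8% on the other arrays. For the members, static 2 thus lay closer to the other arrays than microgravity 2 did. Of 281 probes with an empty cell on some array, 55 had values only on these 2 arrays and 108 were empty only on them. Among markers chosen for the cell type, the osteoblast and stromal genes (6 of 10 had a probe) summed to 25.7 to 54.3 in simulated microgravity, against 55.6 to 116 in static cells, and all 6 had lower values. The osteoblast markers Alpl and Pth1r were among the probes that passed the threshold, with log2 changes of -2.25 and -2.34 (limma adjusted p = 0.0295 and 0.0194). No probe passed with the arrays numbered 2 as a term (lowest adjusted p = 0.0559) or with any 1 array left out. Sums of adipocyte markers were 35.8 to 41.4 in simulated microgravity and 42.7 to 50.5 in static cells, with 3 of 5 genes lower. Lpl averaged 9.89 in simulated microgravity and 16.9 in static cells, and Fabp4 averaged 26.5 in simulated microgravity and 26.1 in static cells. Endothelial markers summed to 0.936 to 2.83 in simulated microgravity and 0.823 to 1.09 in static cells. The highest sum was on microgravity 2, where Esam alone had 1.81, against 0.399 and 0.354 on microgravity 1 and 3. Skeletal muscle markers summed to 1.79 to 2.08 in simulated microgravity and 1.58 to 2.10 in static cells. The part of all these markers in the results was not tested. In bulk samples, fewer cells of a type and less RNA per cell cannot be told apart.

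None of the members passed the test. Groups were compared with limma, 2-sided, with Benjamini-Hochberg adjustment over all 10146 probes tested and a threshold of 0.05, and log2 changes are simulated microgravity over static. Of the 80 members 75 could be tested and 0 passed, while 28 of all probes passed (0.276%), 19 lower (0.187%) and 9 higher (0.0887%). At an adjusted p under 0.1 there was 1 member, Sdc2, and 1.19% of all probes. At an unadjusted p under 0.05 there were 9 members, 6 lower and 3 higher, which is 12% of those tested, against 10.8% of all probes (5.28% lower and 5.56% higher). The groups did not overlap in 10 members (13.3%), 6 lower and 4 higher, against 15.7% of all probes (7.57% lower and 8.11% higher). Both shares lay near the background. Without the 8 genes taken in by the start of their symbols, 67 members were tested. Of these, 8 had an unadjusted p under 0.05 (11.9%) and 9 had groups that did not overlap (13.4%). The median log2 change of the members was 0.04 and that of all probes 0.05. The members' median absolute log2 change was 0.21, against 0.19 over all probes.

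**Figure D1:**
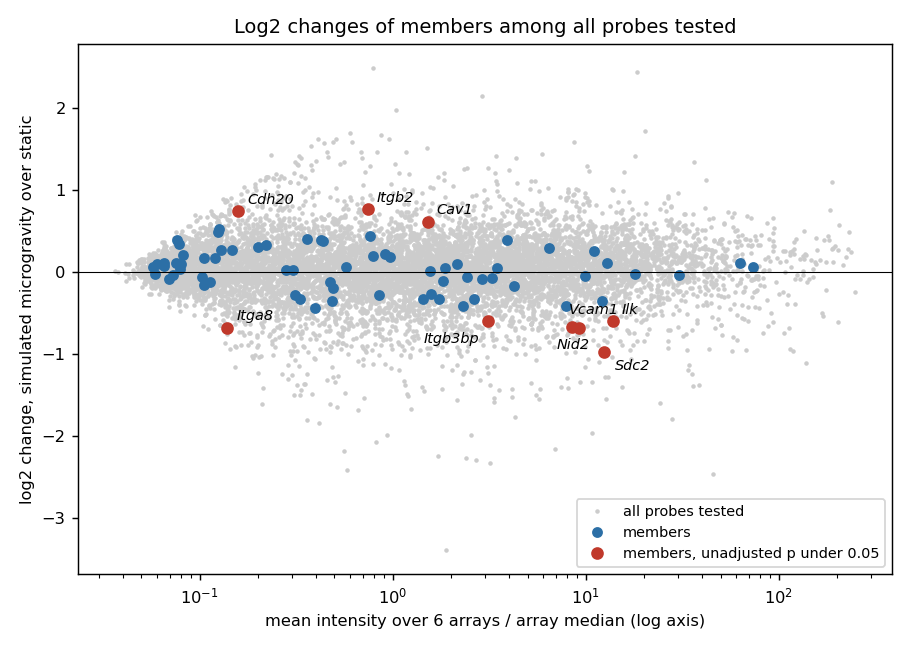
Log2 change, simulated microgravity over static (vertical), against the mean intensity over the 6 arrays divided by the array median (horizontal, log axis), for all 10146 probes tested in grey, the 75 tested members in blue, and those with an unadjusted p under 0.05 in red. The members lie inside the grey cloud. Sdc2 at -0.97 and Itgb2 at 0.77 are the lowest and highest of them.

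Syndecan 2 (Sdc2), a transmembrane heparan sulfate proteoglycan that osteoblasts carry, had the smallest p of the members. It had 6.89, 9.59 and 8.68 times the array median on microgravity 1, 2 and 3, against 16.6, 17.7 and 14.7 on static 1, 2 and 3. Each microgravity array lay under each static array. The mean was 8.39 ± 1.37 in simulated microgravity and 16.4 ± 1.50 in static cells (SD, n = 3 each), so Sdc2 was 1.96-fold lower (log2 change -0.97 with an SE of 0.17, 95% interval -1.37 to -0.57). It missed the threshold over all probes (limma adjusted p = 0.0915, with 0.0393 to 0.511 over the alternatives). The gene passed with cyclic loess normalization (adjusted p = 0.0393) and with array weights (adjusted p = 0.0458). It did not pass with any 1 array left out. Its log2 change kept its direction there, as it must where groups do not overlap. Between the arrays numbered 2 alone the log2 difference was -0.88.

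Of the other syndecans only Sdc1 could be tested. Sdc1, which also binds matrix through heparan sulfate, had 3.98 ± 0.381 in simulated microgravity and 4.47 ± 0.575 in static cells (SD, n = 3 each). Its log2 change of -0.16 had a 95% interval of -0.55 to 0.22, which does not reach the value of Sdc2. The difference between Sdc1 and Sdc2 was not tested. Sdc4, the syndecan of focal adhesions, could not be tested, because it had a value only on microgravity 2 (15.3) and static 2 (10.5). With 1 array a group, no spread can be given for it.

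Among the glypicans, which hold heparan sulfate at the membrane through a lipid anchor, 0 of 4 tested had an unadjusted p under 0.05. Gpc1 had 2.01, 2.69 and 1.37 on microgravity 1, 2 and 3, against 1.95, 2.98 and 2.97 on static 1, 2 and 3 (log2 change -0.41, SE 0.30). The groups overlapped, and the lowest array of each was microgravity 3 and static 1. Gpc4 had 3.51 ± 0.864 in simulated microgravity and 3.40 ± 0.845 in static cells. Gpc6 had 0.853 ± 0.0542 in simulated microgravity and 0.675 ± 0.288 in static cells, where static 2 alone was low at 0.344. Gpc3 was at the floor on 5 of 6 arrays.

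Integrin alpha chains gave dim signals. All 12 had means below the array median in these data, and 5 of them were at the floor on 4 or more arrays. Among the 12, 11 had higher values in simulated microgravity and 1 lower, with a median log2 change of 0.18. Of all tested probes below the array median, 2733 of 4866 had higher values. Itga2, Itga4, Itga7 and Itgam were above the floor on microgravity 2 alone. They entered the test through that array and could only count as higher. The direction of the 12 did not hold without microgravity 2, where 8 chains could be tested, 5 of them lower, with a median of -0.03. Without both arrays numbered 2, 4 of 7 were higher and 3 lower, with a median of 0.11. The count was 11 higher of 12 with cyclic loess and 8 of 9 with quantile normalization, which used the same floor. Microgravity 2 was the highest of the 6 arrays in 21 of the 44 tested members below the array median, and in 1686 of 4785 such probes in all. The part of this array in the count was not tested beyond leaving it out.

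The 1 alpha chain with a lower value was Itga8, which pairs with the beta chain Itgb1 to bind fibronectin and nephronectin. It had 0.112, 0.104 and 0.104 times the array median on microgravity 1, 2 and 3, against 0.168, 0.195 and 0.151 on static 1, 2 and 3. All microgravity values lay below the static ones, just above the floor of 0.1. Itga8 was 1.60-fold lower (log2 change -0.68 with an SE of 0.15, and limma adjusted p = 0.133), with log2 changes of -0.76 to -0.56 in the 17 alternatives that measured it. Itga5, the fibronectin receptor chain, had 0.623, 0.516 and 0.304 in simulated microgravity, against 0.238, 0.352 and 0.517 in static cells (log2 change 0.39, 95% interval -0.54 to 1.32). Its groups overlapped across most of their range. Itgav, which binds vitronectin with Itgb3 or Itgb5, had 0.112 ± 0.0514 in simulated microgravity and 0.0990 ± 0.0272 in static cells, with 3 of 6 arrays at the floor (named after its values were seen). The leukocyte chains Itgax and Itgal had log2 changes of 0.19 and 0.03, with intervals that held 0. The laminin receptor chains Itga3 and Itga6 had 0.30 and 0.49, the platelet chain Itga2b 0.53, and the other 4 chains 0.07 to 0.21.

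Of 7 beta chains 1 had an unadjusted p under 0.05. Itgb1, the beta chain shared by most matrix receptors, had 15.9, 12.4 and 11.9 on microgravity 1, 2 and 3, against 11.1, 10.6 and 15.6 on static 1, 2 and 3. These groups overlapped, and the log2 change was 0.12 with a 95% interval of -0.37 to 0.60. Itgb5, a partner of Itgav, had 7.54, 7.34 and 5.38 in simulated microgravity, against 7.16, 10.4 and 9.48 in static cells (log2 change -0.42, 95% interval -0.91 to 0.08). Its groups overlapped through static 1 alone. Itgb6, a beta chain known from epithelia, had 1.76 ± 0.324 in simulated microgravity and 1.91 ± 0.418 in static cells. Of the chains below the array median, the vitronectin receptor chain Itgb3 had 0.412 ± 0.124 in simulated microgravity and 0.311 ± 0.0958 in static cells, with overlapping groups (log2 change 0.41, SE 0.32). The hemidesmosome chain Itgb4 had a log2 change of -0.44 (SE 0.24), and Itgb7, a leukocyte chain, was at the floor on 4 of 6 arrays.

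Itgb2, the beta chain of leukocyte integrins, was the beta chain that differed most. It had 1.09, 0.753 and 0.967 on microgravity 1, 2 and 3, against 0.440, 0.583 and 0.624 on static 1, 2 and 3, and the groups did not overlap. It was 1.71-fold higher (log2 change 0.77, SE 0.25, limma adjusted p = 0.322, with 0.159 to 0.829 over the alternatives). Of the 8 macrophage and osteoclast markers 6 had a probe, and their summed level was 3.42 to 4.16 in simulated microgravity, against 3.48 to 4.06 in static cells. The defining leukocyte marker Ptprc had 0.0118, 0.152 and 0.0439 in simulated microgravity, against 0.0108, 0.108 and 0.0340 in static cells, and Itgam was at the floor on 5 of 6 arrays. Most of the summed level came from the other markers of the list. Of the 5 markers tested 2 were lower and 3 higher, with log2 changes of -0.23 to 0.45, and their part in the result was not tested.

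**Figure D2:**
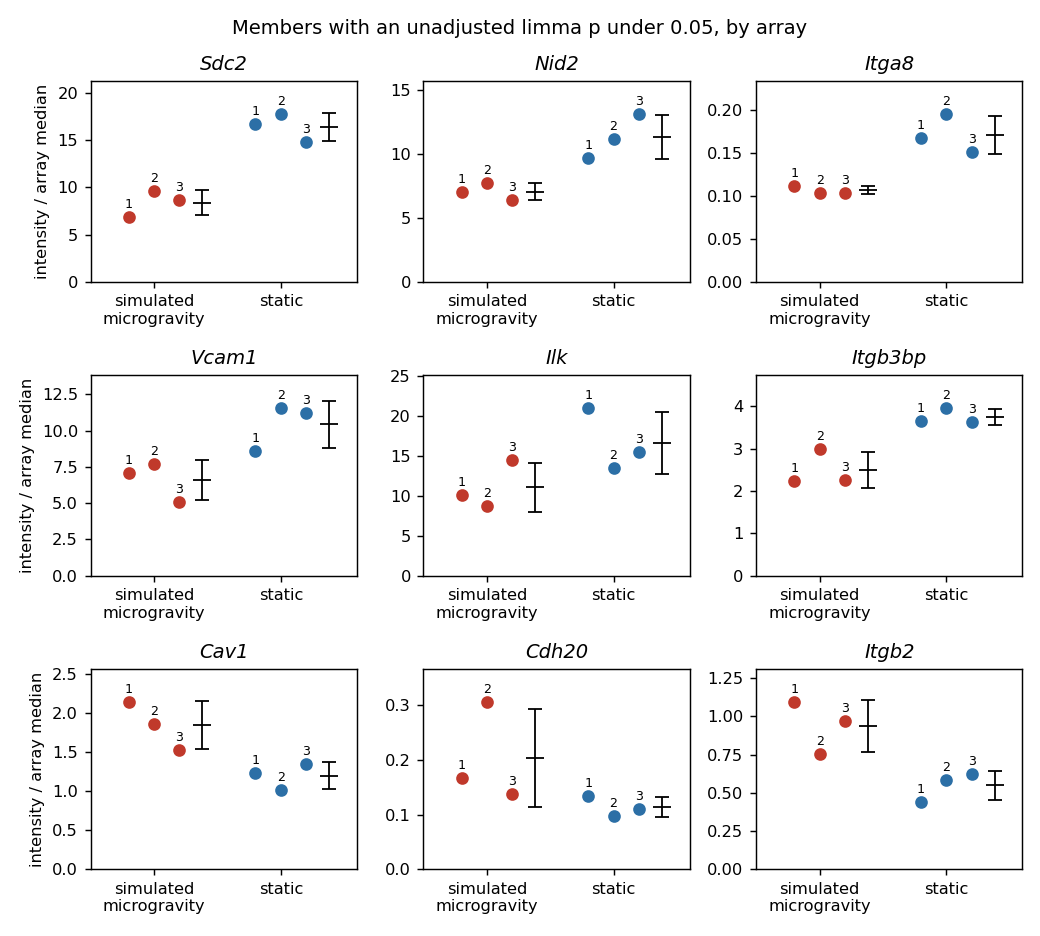
Intensity divided by the array median on each array (points, numbered by replicate) for the 9 members with an unadjusted limma p under 0.05, with simulated microgravity left and static right in each panel, each axis starting at 0. Black bars give the mean ± SD of 3 arrays. Only Ilk overlaps between the groups, and Itga8 and Cdh20 lie near the floor of 0.1.

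Of 17 cadherins, 14 were tested, and Cdh6, Cdh16 and Cdh22 were at the floor on every array. Cdh11, the cadherin of osteoblasts, had 11.8, 13.2 and 7.28 on microgravity 1, 2 and 3, against 11.4, 13.3 and 15.5 on static 1, 2 and 3. Only microgravity 3 lay below all static arrays, and the log2 change of -0.35 had a 95% interval of -0.95 to 0.24. N-cadherin (Cdh2), which osteoblasts also use, had 4.25, 3.73 and 1.80 in simulated microgravity, against 2.26, 3.68 and 3.99 in static cells. Here the arrays of each group differed from each other by more than the groups did (log2 change -0.07, 95% interval -0.97 to 0.83). Cdh17, a cadherin of intestine and liver, had 2.81 ± 0.440 in simulated microgravity and 2.98 ± 0.613 in static cells.

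Cdh20 was the 1 cadherin with an unadjusted p under 0.05. It had 0.166, 0.305 and 0.138 on microgravity 1, 2 and 3, against 0.133, 0.0967 and 0.110 on static 1, 2 and 3 (log2 change 0.75, SE 0.31, limma adjusted p = 0.445). The groups did not overlap, though microgravity 3 and static 1 were close and microgravity 2 alone was far above the rest. Its log2 change ranged from 0.20 to 1.10 over the 18 alternatives that measured it, and it was 0.41 without microgravity 2 and 0.32 without both arrays numbered 2. Unlike Cdh17, which lay above the array median, the cadherins Cdh5 and Cdh1 of other tissues were dim. The endothelial Cdh5 was at the floor on 5 of 6 arrays and the epithelial Cdh1 on 2 of 6, at 0.130 ± 0.0197 in simulated microgravity and 0.109 ± 0.0358 in static cells. The other 8 tested cadherins had log2 changes of -0.03 (Cdh10) to 0.34 (Cdh23).

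Of 7 connexins none had an unadjusted p under 0.05. Gja1, connexin 43 and the main gap junction protein of osteoblasts, had 2.03, 1.89 and 0.859 on microgravity 1, 2 and 3, against 1.59, 2.17 and 1.87 on static 1, 2 and 3. Microgravity 3 was the lowest array. The log2 change of -0.32 (95% interval -1.17 to 0.52) was 0.07 without it. Gja4 and Gja10 had log2 changes of 0.11 and -0.12, and Gja5, Gjb1 and Gjb5 had -0.33 to -0.12. Gjb2 was the only connexin whose groups did not overlap, at 0.491 ± 0.0631 in simulated microgravity and 0.379 ± 0.0558 in static cells (limma adjusted p = 0.709, named after its values were seen).

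Vcam1, the immunoglobulin-family ligand of integrins that carry the chain Itga4, had 7.10, 7.67 and 5.06 on microgravity 1, 2 and 3, against 8.58, 11.5 and 11.2 on static 1, 2 and 3. All 3 microgravity arrays lay below the static ones, with microgravity 2 and static 1 the nearest pair. The mean was 6.61 ± 1.37 in simulated microgravity and 10.4 ± 1.62 in static cells, 1.59-fold lower (log2 change -0.67 with an SE of 0.21, and limma adjusted p = 0.298, with 0.193 to 0.535 over the alternatives). Its partner Itga4 was at the floor on 5 of 6 arrays. Ncam1, a neural adhesion molecule, had 0.305 ± 0.0638 in simulated microgravity and 0.302 ± 0.0832 in static cells.

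Among basement membrane genes, the nidogens, which link laminin to collagen IV, had log2 changes of opposite sign. Nid2 had 7.04, 7.73 and 6.40 on microgravity 1, 2 and 3, against 9.71, 11.2 and 13.1 on static 1, 2 and 3. All microgravity arrays were below all static ones, and Nid2 was 1.60-fold lower (log2 change -0.68 with an SE of 0.16, and limma adjusted p = 0.172, with 0.0934 to 0.511 over the alternatives). Nid1 had 11.3, 14.5 and 10.2 in simulated microgravity, against 9.32, 8.73 and 12.0 in static cells, with groups that overlapped (log2 change 0.25, 95% interval -0.21 to 0.72). The interval of Nid1 lay above the log2 change of Nid2, and the difference between the genes was not tested. Leaving out any 1 array kept the direction of both, which for Nid2 follows from groups that do not overlap.

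Of 8 laminin chains and perlecan, none had an unadjusted p under 0.05. The shared gamma chain Lamc1 had 7.06 ± 0.824 in simulated microgravity and 5.78 ± 1.09 in static cells (log2 change 0.30, 95% interval -0.14 to 0.73). Lamb1, its common beta partner, had 4.82, 6.26 and 2.35 on microgravity 1, 2 and 3, against 1.87, 4.24 and 4.0 on static 1, 2 and 3 (named after its values were seen). Again microgravity 3 and static 1 were the low arrays, and the log2 change of 0.39 had an SE of 0.45. Lama2, whose loss causes muscular dystrophy, had 0.818, 0.831 and 0.679 in simulated microgravity, against 0.942, 0.935 and 0.924 in static cells. These groups did not overlap (log2 change -0.27, limma adjusted p = 0.815, also named after its values were seen). Perlecan (Hspg2) had 1.25 ± 0.110 in simulated microgravity and 1.62 ± 0.547 in static cells. The other 5 laminin chains had log2 changes of -0.35 (Lama4) to 0.27 (Lamb3).

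Elastic fibre genes showed no difference beyond the spread of the arrays, with 0 of 6 at an unadjusted p under 0.05. Fbln5, a fibulin that elastic fibres need to assemble, had 68.5, 72.7 and 80.9 on microgravity 1, 2 and 3, against 83.4, 51.8 and 81.9 on static 1, 2 and 3. The static arrays enclosed the microgravity arrays (log2 change 0.06, 95% interval -0.48 to 0.61), and the sign turned with cyclic loess normalization. Fbln2 had 17.6 ± 4.87 in simulated microgravity and 18.4 ± 7.03 in static cells. In both groups its array numbered 2 was the lowest, at 12.0 and 11.3. Fbln1 had 2.30 ± 0.398 in simulated microgravity and 2.95 ± 0.921 in static cells. Elastin (Eln) was at the floor on 5 of 6 arrays, the exception being microgravity 2 at 0.224, Fbln7 and the fibrillin Fbn2 had log2 changes of -0.19 and -0.27, and vitronectin (Vtn), a ligand of Itgav integrins, was at the floor on every array.

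Of the cytoplasmic and membrane partners, integrin-linked kinase (Ilk), a scaffold that joins integrin beta chains to actin, had 10.0, 8.65 and 14.4 on microgravity 1, 2 and 3. It had 20.9, 13.5 and 15.4 on static 1, 2 and 3, so the groups overlapped through microgravity 3 and static 2 (log2 change -0.60, SE 0.25, limma adjusted p = 0.456). Caveolin 1 (Cav1), the coat protein of caveolae, had 2.14, 1.86 and 1.52 on microgravity 1, 2 and 3, against 1.24, 1.01 and 1.34 on static 1, 2 and 3. Its groups did not overlap, and it was 1.53-fold higher (log2 change 0.62, SE 0.21, limma adjusted p = 0.353, with 0.235 to 0.724 over the alternatives).

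**Figure D3:**
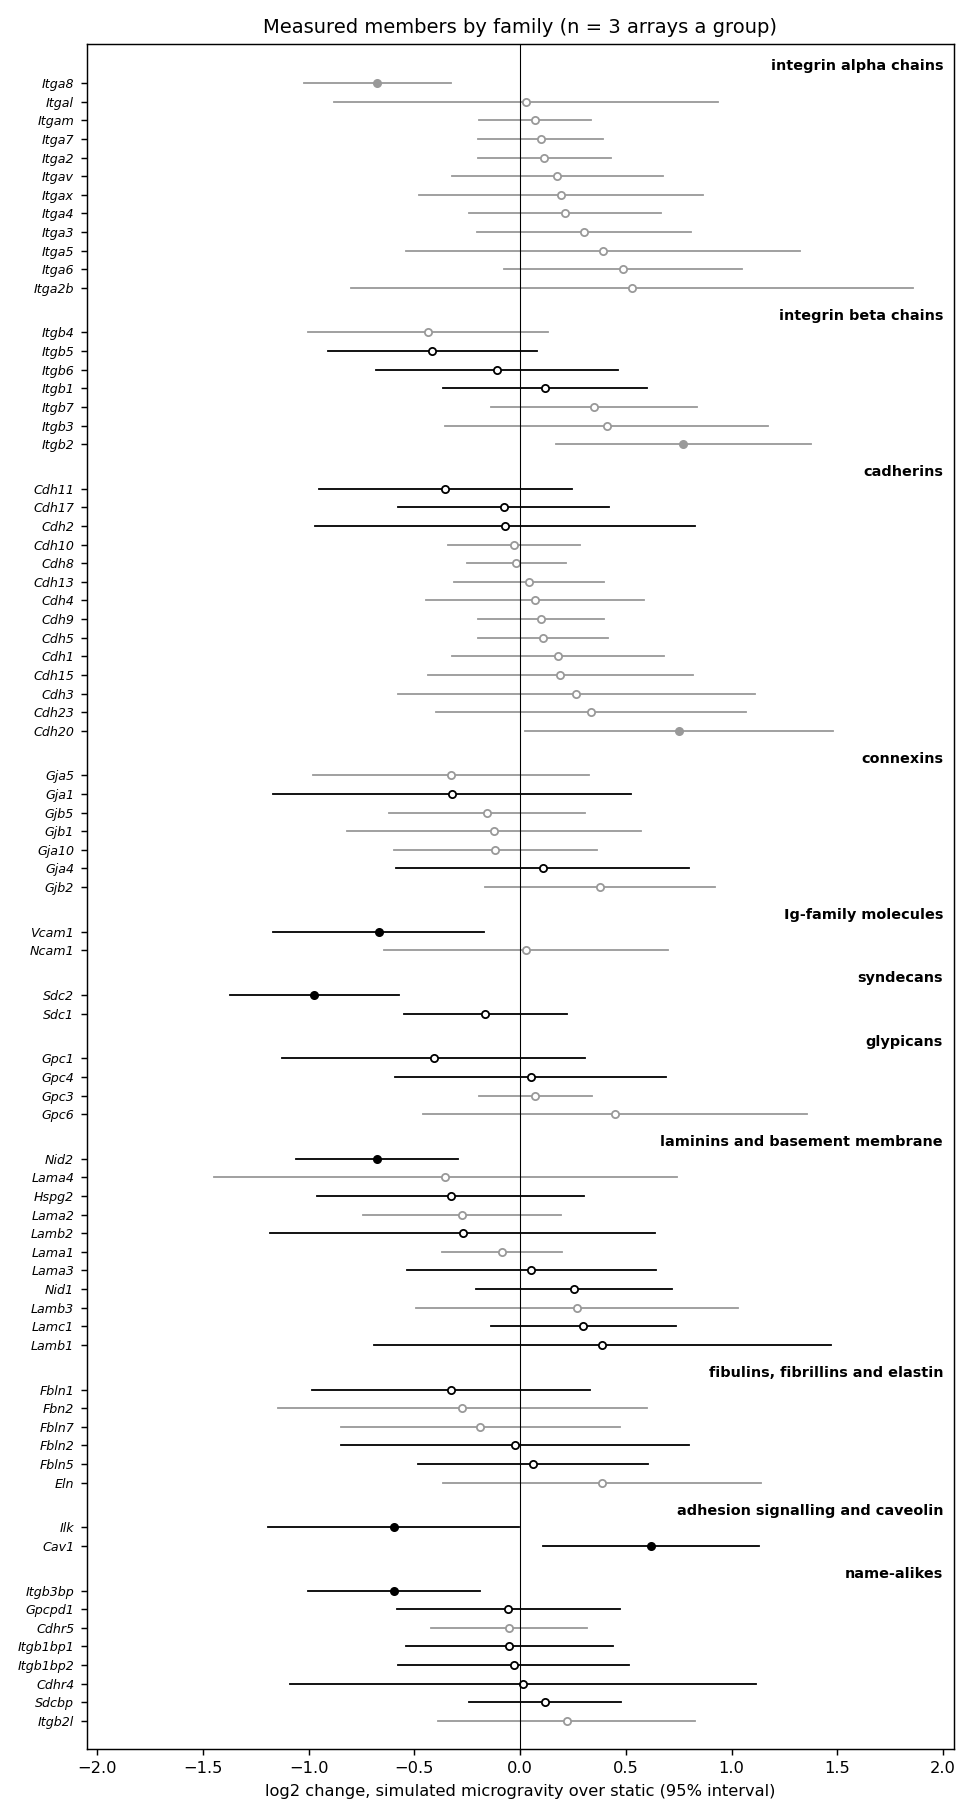
Log2 change, simulated microgravity over static, with its 95% interval from limma (n = 3 arrays a group), for the 75 tested members by family. Black marks members with a mean at or above the array median, grey those below, and filled points an unadjusted p under 0.05. Most intervals cross 0, and those of Sdc2, Nid2, Itga8, Vcam1, Itgb3bp and Ilk lie below it and those of Itgb2, Cav1 and Cdh20 above.

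Of the 8 genes taken in by the start of their symbols, Itgb3bp, the centromere protein CENP-R, was the 1 with an unadjusted p under 0.05. It had 2.24, 3.00 and 2.27 on microgravity 1, 2 and 3, against 3.67, 3.96 and 3.63 on static 1, 2 and 3. The arrays separated by group, and Itgb3bp was 1.51-fold lower (log2 change -0.60 with an SE of 0.17, and limma adjusted p = 0.245). Syntenin (Sdcbp), which binds the tails of syndecans, had 65.3 ± 3.53 in simulated microgravity and 60.3 ± 5.10 in static cells. Its 95% interval of -0.24 to 0.47 lay above the log2 change of Sdc2, and the difference between these genes was not tested. Itgb1bp1, which binds the tail of Itgb1, and Itgb1bp2, melusin, had log2 changes of -0.05 and -0.03. Itgb2l was the 1 member with several probes, at log2 changes of 0.22 and -0.11.

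The direction of the members is set here beside that of all probes of like brightness, with no test of the difference. Of 31 tested members with a mean at or above the array median, 20 had lower and 11 higher values (median log2 change -0.07), while of 5280 probes of that brightness 2231 had lower and 3049 higher values (median 0.05). The split was 20 to 11 with quantile and 21 to 10 with cyclic loess normalization, and 17 to 21 were lower of the 30 or 31 tested when arrays were left out. Of 44 tested members below the array median, 30 had higher and 14 lower values, while of 4866 such probes 2733 had higher and 2133 lower values. Of these members, 14 were at the floor on 4 or 5 arrays. Itga2, Itga4, Itga7, Itgam, Cdh5, Cdh9, Eln, Gpc3 and Itgb7 were above the floor only on microgravity arrays. They could only count as higher. Cdh8 and Lama1 were above it only on static 2 and could only count as lower. Without microgravity 2 the members below the array median turned to 14 higher and 22 lower of 36.

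Arrays of 1 group differed from each other in the brighter members. Microgravity 3 and static 1 were together the lowest arrays of their groups in 13 of the 30 such members with a value on every array, which is 43.3%, against 23.9% of 5159 probes of that brightness. The 13 were Cdh11, Cdh2, Fbln1, Gja1, Gpc1, Gpc4, Gpcpd1, Hspg2, Itgb5, Lamb1, Nid2, Sdc1 and Vcam1. This pair of arrays was picked after the values were seen, which can raise its share among the members. The median deviation of the brighter members from their group's mean was 0.14 on microgravity 2 and -0.13 on microgravity 3, and -0.04 on static 1 and 0.11 on static 3, on the log2 scale. Over all probes of that brightness these medians were 0.03, 0.07, 0.02 and -0.02. Without microgravity 3 and static 1 together, 8 of 74 tested members had an unadjusted p under 0.05, against 719 of 9927 probes (7.24%), and 0 passed. The part of these arrays in single results was not tested otherwise.

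**Figure D4:**
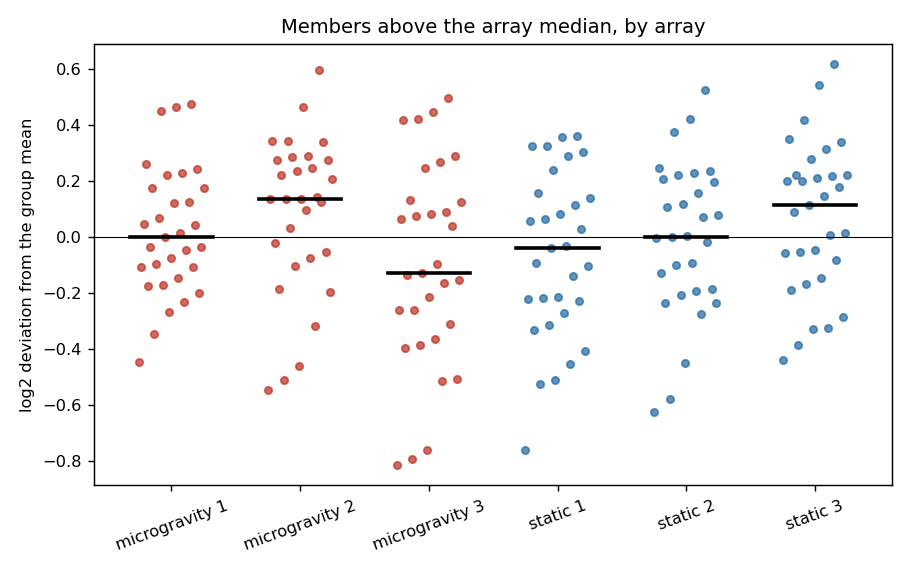
Log2 deviation of each of the 31 tested members at or above the array median (points) from its mean over the 3 arrays of its group, by array, simulated microgravity left and static right, with the median of the members as a black bar. The medians run from -0.13 on microgravity 3 to 0.14 on microgravity 2.

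Genes known to work with the members gave a similar picture. Of 30 measured partners at focal adhesions and adherens junctions, 0 passed, and 2 had an unadjusted p under 0.05, 1 lower and 1 higher (median log2 change -0.05). The 2 are 6.67%, against 10.8% of all probes at that level. The higher one was zyxin (Zyx), a focal adhesion protein that responds to tension, with 13.1, 14.8 and 11.1 on microgravity 1, 2 and 3, against 4.61, 11.4 and 7.41 on static 1, 2 and 3. Its groups overlapped, with microgravity 3 below static 2 (log2 change 0.82, SE 0.33, limma adjusted p = 0.424). The lower one was the tetraspanin Cd9, which associates with integrins, at 23.4 ± 0.815 in simulated microgravity and 29.3 ± 1.26 in static cells (log2 change -0.33). Next by p were the sarcoglycan Sgcd, the tetraspanin Cd63 and the catenin Ctnnd1, with log2 changes of -0.33, -0.38 and -0.40.

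Of 29 tested genes of other adhesive and elastic matrix, 0 passed, and 5 had an unadjusted p under 0.05, all 5 lower. With array weights 2 passed. The 5 are 17.2%, against 10.8% of all probes at that level in either direction and 5.28% lower. The lower direction was not fixed beforehand. Among all probes above the array median the share in either direction was 15.8%, and 14 of the 29 genes lay below that median. The list's median log2 change was 0.03 and 16 genes had higher values (11 of 28 with quantile normalization, median -0.10). Periostin (Postn), a matrix protein that binds integrins, had 36.5, 45.6 and 35.3 on microgravity 1, 2 and 3, against 67.6, 78.8 and 80.5 on static 1, 2 and 3 (log2 change -0.96, SE 0.17, limma adjusted p = 0.0930). The thrombospondin Thbs3 had 2.20, 2.34 and 2.65 in simulated microgravity, against 4.30, 4.16 and 3.91 in static cells (log2 change -0.78). Tenascin C (Tnc) had 14.2, 16.0 and 15.9 in simulated microgravity, against 24.9, 23.4 and 29.8 in static cells (log2 change -0.76). The groups did not overlap in these genes, nor in Ecm1 and the lysyl oxidase family member Loxl3, at log2 changes of -0.68 and -0.64. Groups that did not overlap made up 17.2% of the list, near the 15.7% of all probes. The list was chosen with earlier results of these data known, so its count is a description.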

How the data were processed

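The authors deposited linear intensities, with 10337 to 10432 values per array for 10500 probes. How these were made from the scans is not stated in the labels. The deposited array medians lay between 0.908 and 0.927, so arrays were treated as already scaled. Values were divided by the median of their array, raised to 0.1 where lower, and put on the log2 scale, which understates changes of dim probes. Probes at the floor on every array or with under 2 values in either group were not tested, leaving 10146 of 10500. Of the 80 members, 4 were at the floor on every array and Sdc4 had too few values. No detection calls were used.

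Groups were compared with limma 3.58.1 in R 4.3.3 (lmFit, eBayes with trend), after the same steps had been tested on simulated data. In these, 36.8% of 2-fold changes passed, all given to probes with static means above the array median. A member that did not pass may thus still have changed by that much. With 3 arrays a group, their number limits precision, and p-values rest on the spread between these 6 samples alone, which may be technical. Symbols come from GEO's platform annotation. All members, lists and tests were chosen with earlier results of these data known. Named were members with an unadjusted p under 0.05, the up to 3 brightest of each family, the syndecans, Vtn, Ilk and Cav1, and up to 5 genes of each partner list with the smallest p; other members were named after their values were seen. Alternatives changed the normalization, floor, filter, variance model, weights, block, threshold and arrays.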

Additional observations from a re-analysis of the deposited data

How the results depend on the processing

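The 28 probes past the threshold became 49 with quantile normalization, 57 with cyclic loess normalization, 53 with the floor at 0.05 of the median, 59 with no floor, 59 without the dimmest 25% of probes and 115 with array weights. It was 40 with the floor at 0.2, 29 with robust eBayes and 19 with eBayes without trend. The count was 0 by limma with the replicate block (938 probes at an unadjusted p under 0.05), 0 with the arrays numbered 2 as a term (1419 probes) and 0 with any 1 array or either of 2 pairs left out (719 to 968 probes). Members past the threshold, 0 in the reported fit, were 1 (Sdc2) with cyclic loess normalization, with array weights, and at an adjusted p under 0.1. They were 0 in all other settings, the leave-one-out range being 0 to 0. Members at an unadjusted p under 0.05 were 6 to 9 with arrays left out and 7 to 10 otherwise. The members' median log2 change, 0.04, was -0.041 without the dimmest 25% of probes and ran from -0.059 (without microgravity 2) to 0.10 with arrays left out. Same-numbered arrays deviated together for number 2 (r = 0.45 over probes) but not for 1 and 3 (r = -0.21 and -0.18). Of 3 microgravity arrays 1 correlated best with its own number. Deviations from a group's mean sum to 0 over its arrays, so these correlations are tied to each other. They cannot settle whether the numbers pair the samples, and the labels do not say. With the replicate block 7 members had an unadjusted p under 0.05. Leaving out the arrays numbered 2 together, leaving out microgravity 3 with static 1, and the term for number 2 were chosen after seeing the data.

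Of 34 tested named members, 19 kept their direction in each of the alternative fits that measured them, and of all 75 tested members 40 did. The 19 include all 9 with an unadjusted p under 0.05. These 9 were picked by p from the same arrays. Except in Ilk, their groups did not overlap, so leaving out arrays could not turn their direction. Their kept direction is therefore no separate support. With array weights the log2 change turned to 0.036 for Cdh2, -0.094 for Fbln5, -0.16 for Itgal, 0.041 for Itgb1bp2 and -0.16 for Ncam1, and with cyclic loess to -0.025 for Fbln5. With arrays left out, log2 changes ran from -0.22 to 0.075 for Cdh17, -0.33 to 0.31 for Cdh2, -0.34 to 0.25 for Fbln2, -0.16 to 0.18 for Fbln5, -0.55 to 0.073 for Gja1, -0.14 to 0.34 for Gja4, -0.18 to 0.24 for Gpc4 and -0.022 to 0.67 for Gpc6. They ran from -0.46 to 0.52 for Itgal, -0.056 to 0.36 for Itgax, -0.014 to 0.29 for Itgb1, -0.26 to 0.066 for Itgb1bp1, -0.25 to 0.16 for Itgb1bp2, -0.30 to 0.11 for Itgb6 and -0.21 to 0.24 for Ncam1. The cause was not tested. Where a probe lay near the floor, as for most integrin alpha chains, low signal limits what can be seen.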
